A study of Mus musculus with 20 samples.

Results

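The 10 genes of the lipid droplet coat and of triglyceride turnover described here were followed in liver RNA-seq counts, out of 46078 genes in the table: the coat proteins *Plin2*, *Plin4* and *Plin5*, the droplet-fusion and lipoprotein-loading proteins *Cidec* and *Cideb*, the lipase *Pnpla2* and its inhibitor *G0s2*, and the triglyceride-forming enzymes *Dgat1*, *Dgat2* and *Mogat1*. They were chosen by their known role and matched by Ensembl identifier and symbol; all 10 were found, and 9 passed the filter on low counts. *Mogat1*, which joins a fatty acid to monoacylglycerol, did not pass, with 0 to 22 counts per library and at most 0.686 CPM, the depth-scaled count used throughout, so it was not tested.

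A hepatocyte stores fatty acids as triglyceride in droplets bounded by a phospholipid monolayer and a coat of perilipins, which gate the access of lipases. Triglyceride is built by acylation of glycerol, with the last step done by DGAT1 or DGAT2, and it leaves the droplet through lipolysis, begun by ATGL, the product of *Pnpla2*, or leaves the cell in very-low-density lipoprotein. Fasting raises fatty acid delivery to the liver, and many genes of the droplet coat are known targets of the fatty acid receptor PPARα.

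The data cover 20 livers of male mice in 6 groups. *Cse* encodes cystathionine γ-lyase, the enzyme that makes cysteine from cystathionine, and mice lacking it in the germline (Cse-/-, 129/C57BL/6 background) depend on dietary cysteine. The mice that serve as controls are called WT in the labels and heterozygous (Cse+/-) in the study's text, and the latter name is used here. All mice were at least 9 weeks old, all were kept on restricted calories throughout, first with control food and then with the diet of their group, and livers were taken 2 days after the diets were switched. Control livers came from Cse+/- mice kept on the complete defined diet (n = 2, libraries av21 and av22). Further Cse+/- mice received the diet without cysteine (no-Cys, n = 4, av01 to av04) or without tryptophan (no-Trp, n = 3, av17, av19 and av20). Cse-/- mice received the no-Cys diet (n = 4, av05 to av08), the no-Trp diet (n = 3, av14 to av16) or the no-Trp diet with buthionine sulfoximine (BSO), an inhibitor of glutathione synthesis (n = 4, av09 to av12). No Cse-/- mouse on the control diet and no Cse+/- mouse on BSO is among the libraries used here, so the knockout itself, and BSO in heterozygous livers, cannot be compared here. Libraries are called by their column names.

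Counts on genes ranged from 11785740 to 57986121 per library. RNA of the deleted gene, listed as *Cth*, was at 6.37 to 14.4 CPM in the 11 Cse-/- livers and at 88.4 to 332 CPM in the 9 Cse+/- livers, so every library matched its labelled genotype. Albumin RNA lay between 25507 and 87978 CPM in all 20 libraries, where it is the defining secreted protein of hepatocytes, whereas each pancreatic marker stayed at or below 1.13 CPM and each muscle marker at or below 0.0708 CPM. The summed level of 8 liver markers was lower in Cse-/- livers on the no-Cys diet (47273 to 78687 CPM) than in Cse+/- livers on that diet (92463 to 120182 CPM), without overlap. Albumin makes up most of that sum, and the markers did not move together: *Alb*, *Apoa1* and *Ttr* were called lower by edgeR, *Cps1* was called higher, and *Apob*, *Hnf4a*, *Fgb* and *Tat* were not called. Without albumin the sums overlapped, at 20440 to 29192 CPM in Cse-/- livers and 28288 to 32255 CPM in Cse+/- livers. The part of this shift in the results below was not tested. In bulk tissue, fewer cells of a type and less RNA per cell cannot be told apart.

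Libraries av14 and av17 held transcripts that mark adipocytes. *Adipoq*, the adipokine adiponectin, had 25 counts (1.08 CPM) in av14 and 41 counts (2.91 CPM) in av17, against at most 3 counts in any of the other 18 libraries. *Plin1*, the perilipin of adipocytes, was at 0.906 CPM in av14 and 0.782 CPM in av17, and at most 0.0906 CPM elsewhere. *Cfd*, adipsin, reached 11.1 and 26.3 CPM, against at most 0.708 CPM elsewhere, and *Lep* was at 0 counts in all 20. Some other markers of the list did not single out these libraries. *Adrb3* was at 9.41 CPM in av14 and 16.2 CPM in av17, within the 1.49 to 17.1 CPM of the others. The brown-fat genes *Ucp1* and *Cidea* were highest in av14 (3.02 and 2.63 CPM), but av19 held 41 *Ucp1* counts against 3 in av17, and 18 *Cidea* counts against 11. Summed over the 10 adipose markers, the level was 60.4 CPM in av14 and 81.1 CPM in av17, and 9.92 to 28.5 CPM in the others. On the no-Cys diet the sum separated the genotypes, at 9.92 to 15.3 CPM in Cse-/- and 21.9 to 28.5 CPM in Cse+/- livers. *Adrb3*, with means of 2.98 and 15.2 CPM there, made up most of that gap, and without it the sums overlapped, at 7.44 to 12.1 CPM and 7.76 to 13.6 CPM. Its part in the genotype results was not tested. Among the members that adipocytes also express, *Plin4*, *Cidec*, *G0s2* and *Pnpla2* were placed as follows in both libraries. *G0s2* was the middle of its group in both, at 200 CPM in av14 and 115 CPM in av17. *Pnpla2* was the lowest of its group in av14 (151 CPM) and the middle in av17 (171 CPM). *Plin4* was at 7.16 CPM in av14, the middle of its group of 3, and at 5.76 CPM in av17, the lowest of its group, while *Cidec* was at 9.97 CPM in av14, again the middle, and at 14.1 CPM in av17, the highest of its group. Each comparison below was also fitted without both libraries, and for the 9 tested members the outcome is given where a call changed. For the other lipid genes and regulators, outcomes are given with single libraries left out.

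**Figure D1:**
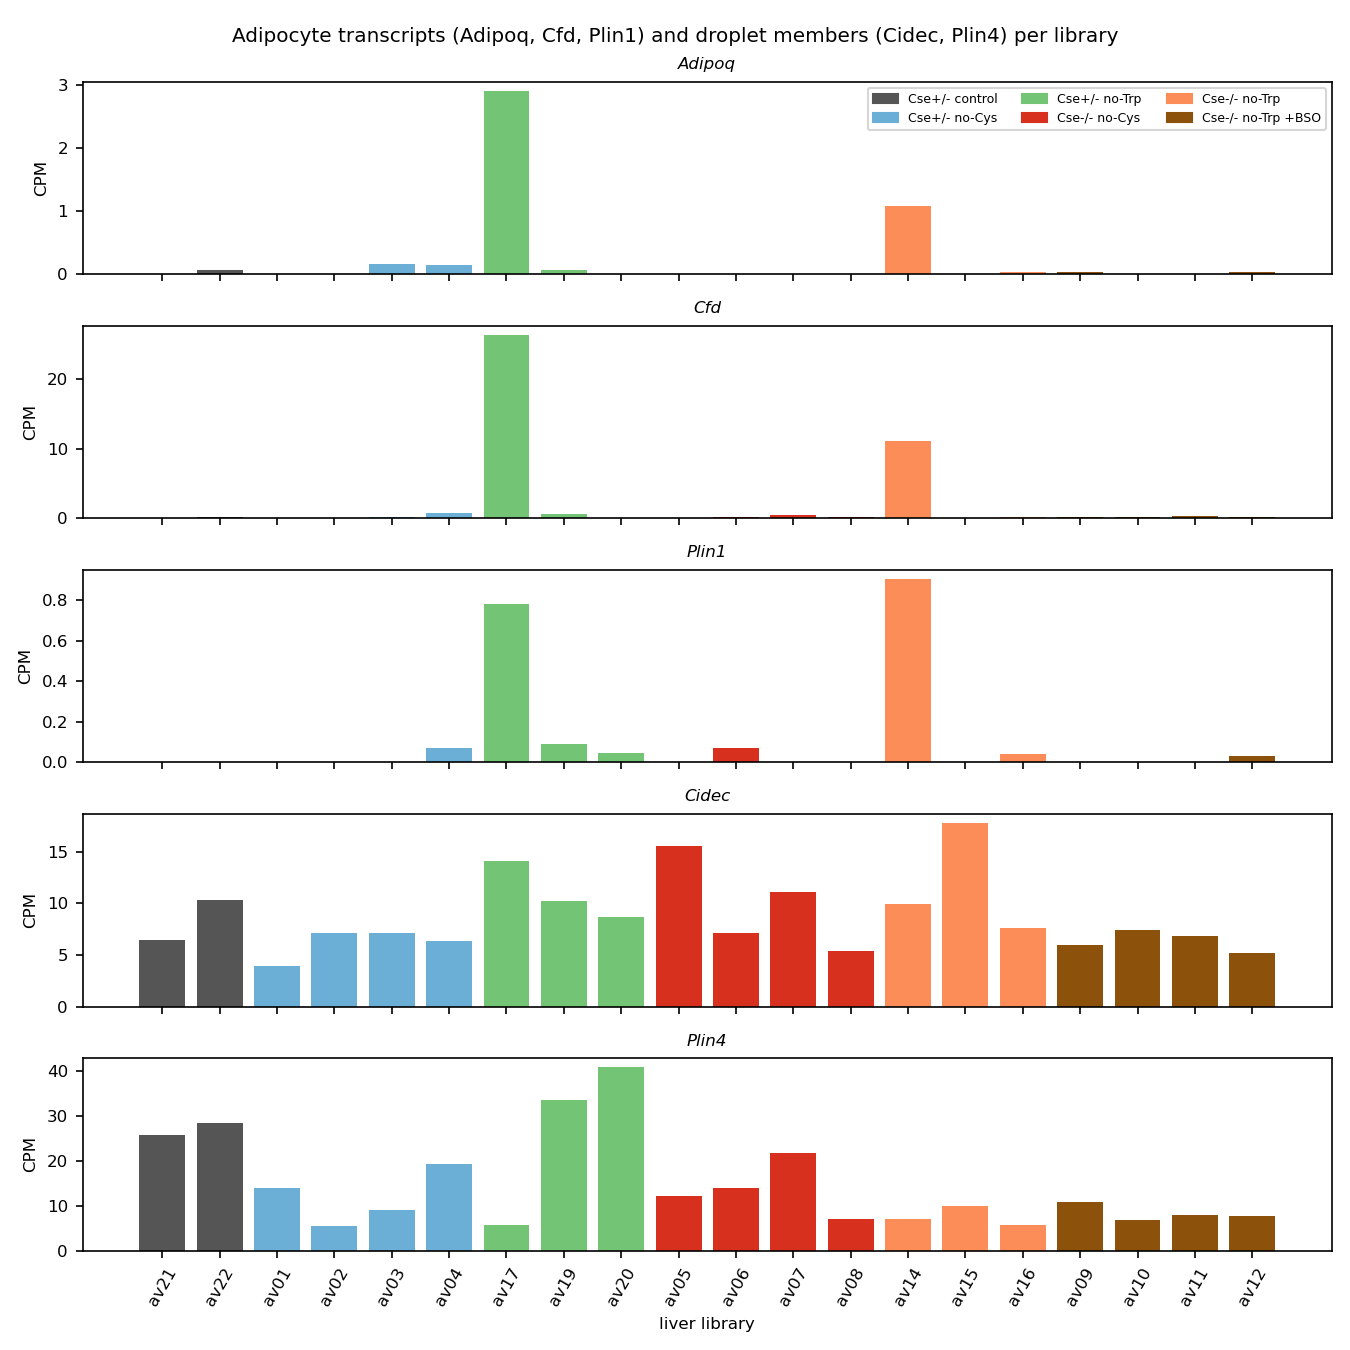
Bars give CPM per liver library, coloured by group, for 3 adipocyte transcripts (*Adipoq*, *Cfd*, *Plin1*) and 2 droplet genes (*Cidec*, *Plin4*). The adipocyte transcripts stand out in av17 and av14, whereas *Plin4* in av17 is at 5.76 CPM, below the 33.5 and 40.9 CPM of the other Cse+/- livers on the no-Trp diet.

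Per kilobase of exon, a scale that permits comparison between genes, mean levels over the 20 libraries ran from *Dgat2* (270 CPM per kilobase) through *G0s2* (106), *Plin2* (91.9), *Pnpla2* (59.1), *Plin5* (30.7), *Cideb* (25.2), *Dgat1* (12.4), *Cidec* (4.69) and *Plin4* (2.54) to *Mogat1* (0.195). The spread among livers followed another order. The highest library was 16.0 times the lowest for *G0s2*, 7.52 times for *Plin4*, 4.48 times for *Cidec*, 4.09 times for *Plin2* and 3.16 times for *Plin5*, but 1.86 times for *Pnpla2*, 1.82 times for *Cideb*, 1.5 times for *Dgat1* and 1.41 times for *Dgat2*. With the 6 groups of each tested member placed in order of mean level, 44 of 45 neighbouring groups had overlapping ranges. The exception was *Dgat1*, whose lowest group, Cse+/- on the no-Cys diet, lay entirely below the next. Ordering by mean places like groups side by side, and no share over all genes was taken. The count of overlaps is therefore not a result about these members.

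**Figure D2:**
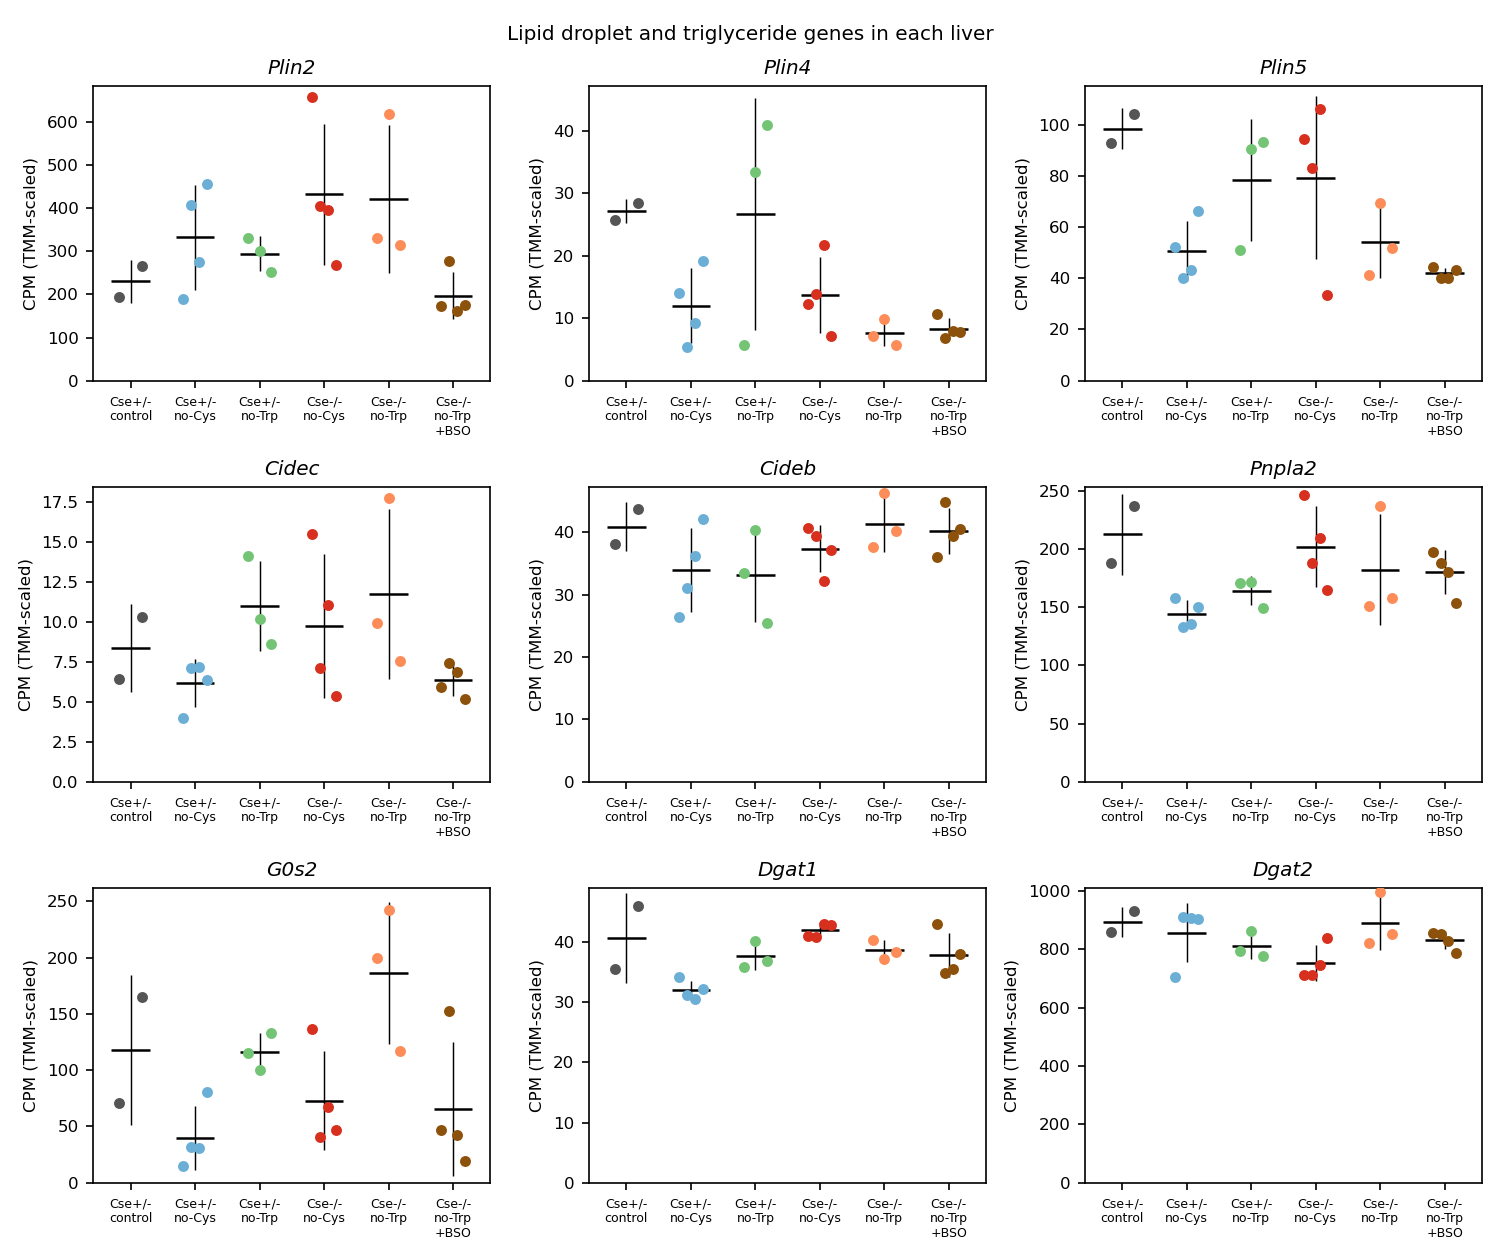
Each point is the CPM of a liver library (linear axis from 0) for the 9 tested members, by group, with the group mean as a horizontal bar and the SD as a vertical line (n = 2 to 4). *Dgat1* in Cse+/- livers on the no-Cys diet lies between 30.6 and 34.2 CPM, below all other livers, whereas most other groups overlap.

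Of the perilipins, *Plin2*, the ubiquitous droplet coat protein that is stabilised by stored fat, was the most abundant per kilobase. In Cse-/- livers on the no-Cys diet it was at 658, 404, 397 and 269 CPM, and in Cse-/- livers given BSO with the no-Trp diet at 174, 278, 161 and 176 CPM. The lowest no-Cys liver (av08) lay just under the highest BSO liver (av10), and the other 6 livers separated. In Cse-/- livers on the no-Trp diet alone it was at 331, 619 and 315 CPM, all above the BSO group. Cse+/- livers were at 190, 407, 276 and 457 CPM on the no-Cys diet, at 332, 300 and 252 CPM on the no-Trp diet, and at 194 and 266 CPM on the control diet. These groups overlapped each other.

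*Plin4*, an amphipathic coat protein of nascent droplets, and *Plin5*, which tethers droplets to mitochondria in oxidative tissues, are neighbours on chromosome 17 (GRCm38), both on the minus strand and 1797 bases apart (chr17:56100591-56109803 and chr17:56111601-56117596). *Plin4* was at 25.8 and 28.5 CPM in the control livers and at 5.76, 33.5 and 40.9 CPM in Cse+/- livers on the no-Trp diet. In Cse+/- livers on the no-Cys diet it was at 14.1, 5.43, 9.18 and 19.2 CPM. All of these no-Cys livers lay below both control livers, and av17 stood far under the other livers of its group. Among Cse-/- livers, *Plin4* was at 12.3, 13.9, 21.7 and 7.08 CPM on the no-Cys diet, at 7.16, 9.85 and 5.76 CPM on the no-Trp diet, and at 10.7, 6.83, 8.0 and 7.78 CPM with BSO. No Cse-/- liver reached the level of the control livers.

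*Plin5* was at 92.8 and 104 CPM in control livers and at 52.3, 40.1, 43.3 and 66.4 CPM in Cse+/- livers on the no-Cys diet, again without overlap. Cse+/- livers on the no-Trp diet were at 50.9, 90.6 and 93.3 CPM, with av17 the low liver here too. Cse-/- livers were at 94.5, 83.2, 106 and 33.6 CPM on the no-Cys diet, where av08 fell below the other 3, at 41.3, 69.4 and 52.0 CPM on the no-Trp diet, and at 44.4, 40.1, 40.3 and 43.2 CPM with BSO. The BSO livers were the most uniform group, and 3 of 4 no-Cys livers stood above all of them. *Plin4* and *Plin5* varied together, with Pearson's r = 0.83 of log2 CPM over the 20 libraries, the highest among pairs of members, and the libraries share group and diet in this description. Next came *Cidec* with *G0s2* (0.77), *Plin2* with *Cidec* (0.70) and *Pnpla2* with *Dgat1* (0.62), and the lowest was *Dgat1* with *Dgat2* (-0.23).

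**Figure D3:**
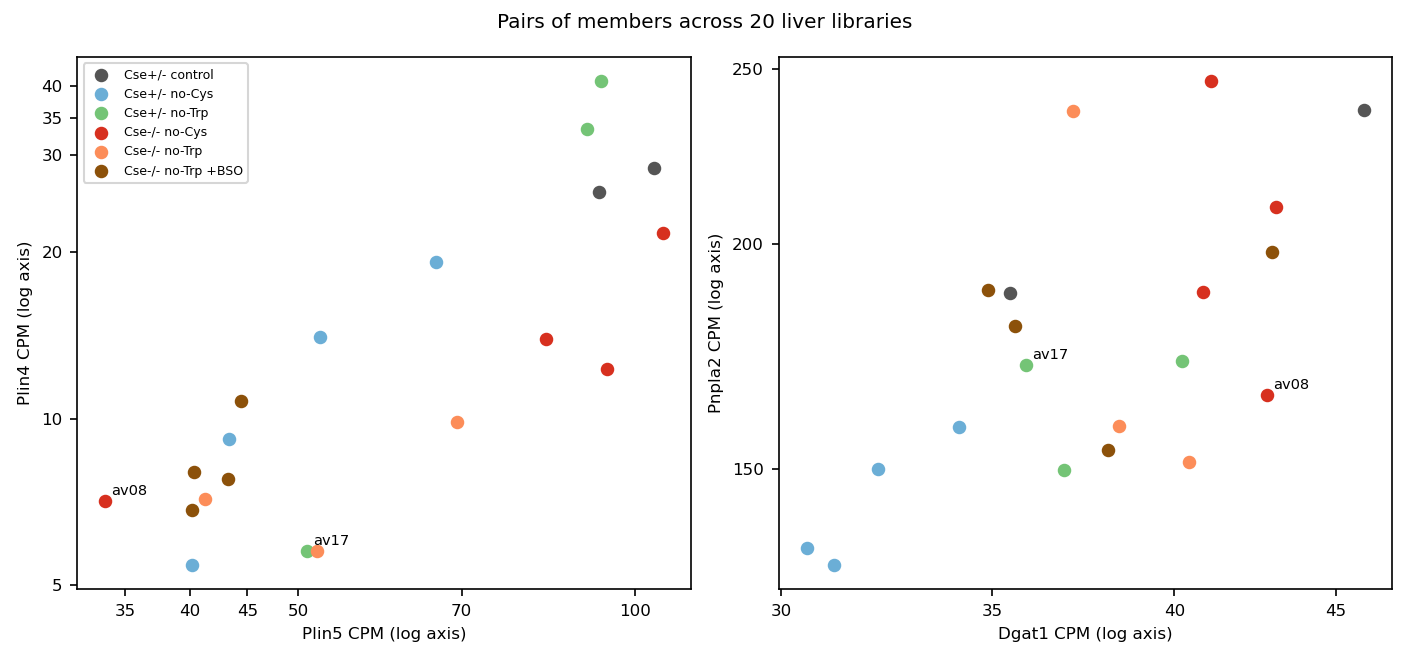
Left, *Plin4* against *Plin5*, and right, *Pnpla2* against *Dgat1*, as CPM per liver library on log axes, coloured by group, with av08 and av17 labelled. The points of *Plin4* and *Plin5* rise together (r = 0.83 over 20 libraries), and Cse+/- livers on the no-Cys diet occupy the lower left of the *Pnpla2* and *Dgat1* panel (r = 0.62).

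The windows of 250 bases upstream of the RefSeq start sites (GRCm38.p6) are shown for the 3 perilipins, which coat the droplet, and for *Pnpla2*, the lipase that passed the test between genotypes. Capitals mark matches of 3 motifs searched on both strands: the CCAAT box, the TATA box (spelled TATAA) and the hexamer of nuclear receptors (spelled AGGTCA). A match on the opposite strand is shown as its reverse complement, and the TATA box was added to the search after the windows were seen. All are written 5′ to 3′ in the direction of the gene.

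*Plin2*, minus strand, chr4:86670060-86670309: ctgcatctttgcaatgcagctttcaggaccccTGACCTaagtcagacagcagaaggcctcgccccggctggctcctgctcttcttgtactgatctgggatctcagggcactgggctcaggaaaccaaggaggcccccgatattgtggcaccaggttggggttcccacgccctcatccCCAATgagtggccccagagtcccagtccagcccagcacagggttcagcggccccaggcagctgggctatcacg

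*Plin4*, minus strand, chr17:56109783-56110032: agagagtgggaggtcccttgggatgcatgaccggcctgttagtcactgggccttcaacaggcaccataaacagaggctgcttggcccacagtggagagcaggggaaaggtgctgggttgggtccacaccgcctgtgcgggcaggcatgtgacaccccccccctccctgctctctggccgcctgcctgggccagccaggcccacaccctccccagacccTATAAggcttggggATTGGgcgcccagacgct

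*Plin5*, first of 2 start sites, minus strand, chr17:56117549-56117798: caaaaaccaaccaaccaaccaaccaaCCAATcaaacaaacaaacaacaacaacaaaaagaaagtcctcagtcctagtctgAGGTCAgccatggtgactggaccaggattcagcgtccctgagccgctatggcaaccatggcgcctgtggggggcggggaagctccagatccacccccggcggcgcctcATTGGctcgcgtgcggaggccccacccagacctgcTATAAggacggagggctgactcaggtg

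*Pnpla2*, plus strand, chr7:141454938-141455187: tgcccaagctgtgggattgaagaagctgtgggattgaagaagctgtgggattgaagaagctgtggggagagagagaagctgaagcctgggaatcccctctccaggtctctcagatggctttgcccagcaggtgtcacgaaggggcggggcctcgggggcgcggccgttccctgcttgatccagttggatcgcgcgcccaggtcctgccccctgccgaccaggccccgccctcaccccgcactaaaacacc

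*Plin4* and *Plin5* both hold TATAA (32 to 28 and 27 to 23 bases before the start) and a CCAAT box, whereas the *Pnpla2* window holds none of these letters. RefSeq promoters were matched for 8 of the 10 members, with 10 start sites. Of these 10 sites, 3 hold CCAAT, against 33.9% of all 32851 promoters of the same length, 3 hold TATAA, against 22.8%, and 2 hold AGGTCA (*Plin2* and *Plin5*), against 14.0%. The direct repeat AGGTCANAGGTCA, the form bound by PPARα with its partner, was in none of the 10 and in 0.0335% of all promoters. With the fourth base of each hexamer left free (AGGNCANAGGNCA), it was again in none, and in 0.338% of all. The E-box CACGTG (6.02% of promoters), the sterol element TCACNCCAC (1.05%) and the amino acid response element TGATGNAAT (0.816%) were also in none of the 10 windows, while the antioxidant response element TGACNNNGC (10.2%) was in that of *Cideb*. A match is a description of letters in a window and not of a bound site.

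Of the CIDE proteins, *Cidec* drives fusion of droplets and rises in fatty liver. It was at 15.5, 7.11, 11.05 and 5.39 CPM in Cse-/- livers on the no-Cys diet and at 3.97, 7.13, 7.15 and 6.37 CPM in Cse+/- livers on that diet, which overlapped. In Cse-/- livers on the no-Trp diet it was at 9.97, 17.8 and 7.58 CPM, all above the 5.95, 7.44, 6.88 and 5.16 CPM with BSO. Cse+/- livers on the no-Trp diet were at 14.1, 10.2 and 8.64 CPM, and the controls at 6.42 and 10.3 CPM. *Cideb*, which loads lipid onto lipoprotein particles in hepatocytes, stayed between 25.4 and 46.3 CPM in all 20 livers, and its groups overlapped. Its value is uncertain, since 76.3% of its exon bases are shared with *Nop9* on the opposite strand and no strand setting of the counting is stated.

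*Pnpla2* starts triglyceride hydrolysis. It was at 246, 188, 210 and 165 CPM in Cse-/- livers on the no-Cys diet and at 158, 133, 136 and 150 CPM in Cse+/- livers on the same diet, with the highest heterozygous liver just below the lowest knockout liver. The control livers were at 188 and 237 CPM. Cse+/- livers on the no-Trp diet were at 171, 172 and 150 CPM, Cse-/- livers on that diet at 151, 237 and 158 CPM, and those given BSO at 198, 188, 180 and 154 CPM. The no-Cys Cse+/- livers were thus the lowest group by mean and the controls the highest.

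*G0s2*, whose product binds ATGL and blocks it, was the most variable member. In Cse-/- livers it was at 137, 40.6, 67.2 and 46.9 CPM on the no-Cys diet, at 200, 242 and 117 CPM on the no-Trp diet, and at 46.7, 153, 42.3 and 19.6 CPM with BSO. A single liver in the no-Cys group (av05) and in the BSO group (av10) reached into the range of the no-Trp group. Cse+/- livers were at 15.1, 32.0, 30.7 and 80.8 CPM on the no-Cys diet, at 115, 100 and 133 CPM on the no-Trp diet, and at 70.4 and 165 CPM on the control diet.

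Of the final acyltransferases, *Dgat1*, the enzyme that also esterifies fatty acids released by lipolysis, was at 41.1, 40.8, 43.1 and 42.8 CPM in Cse-/- livers on the no-Cys diet. It was at 34.2, 31.2, 30.6 and 32.2 CPM in Cse+/- livers on that diet, well separated from the knockout livers. The other livers were at 35.5 and 45.9 CPM (control), 35.9, 40.2 and 36.9 CPM (Cse+/- no-Trp), 40.4, 37.2 and 38.4 CPM (Cse-/- no-Trp) and 43.0, 34.9, 35.6 and 38.1 CPM (BSO). *Dgat2*, which works with newly made fatty acids, was at 711, 711, 747 and 841 CPM in Cse-/- livers and at 705, 912, 907 and 905 CPM in Cse+/- livers on the no-Cys diet. A single heterozygous liver, av01, lay just under all 4 knockout livers, and the other 3 lay above them. In the other groups it ranged from 777 to 996 CPM.

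The first comparison sets livers that cannot make cysteine against heterozygous livers on the same no-Cys diet, so it is one of genotype. edgeR called *Pnpla2* and *Dgat1* as higher in Cse-/- livers, by 1.40-fold and 1.31-fold, and none of the 9 tested members as lower. Their Cse-/- means, 202 and 41.9 CPM, were near those of control livers, 213 and 40.7 CPM, and the Cse+/- livers on the no-Cys diet were the lower group, at 144 and 32.0 CPM. For *Dgat1* the log2 fold change was 0.39 (SE 0.0871, edgeR adjusted p = 0.00306), and for *Pnpla2* it was 0.49 (SE 0.142, edgeR adjusted p = 0.0170). Over all 14759 genes tested, 23.8% passed in either direction and 11.6% passed as higher, so 2 of 9 is near the share among all genes. The 2 members were also those whose groups did not overlap, against 23.2% of all genes. Fold changes were positive for 8 of 9, with a median of 0.39 on the log2 scale, against -0.0093 for all genes.

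The other members of this comparison did not pass by edgeR, while DESeq2 also called *Plin5* (adjusted p = 0.0462). The share of all genes that DESeq2 called is not given here for any comparison, so its calls are not set against one. *Plin5* had a log2 fold change of 0.65 (SE 0.261, edgeR adjusted p = 0.0760, or 0.0176 with no filter on low counts) and *Cidec* one of 0.67 (SE 0.309, edgeR adjusted p = 0.124). *G0s2* was at 0.87 (SE 0.539), *Plin2* at 0.38 (SE 0.284), *Plin4* at 0.21 (SE 0.439), *Cideb* at 0.14 (SE 0.142) and *Dgat2* at -0.19 (SE 0.0962), with edgeR adjusted p from 0.165 to 0.772. The call of *Dgat1* held without each library in turn. That of *Pnpla2* was lost without av02 (0.45, edgeR adjusted p = 0.0532) or without av05 (0.39, edgeR adjusted p = 0.0638). Without av08, the liver with low *Plin5*, *Plin5* (0.90, edgeR adjusted p = 0.00249) and *Cidec* (0.87, edgeR adjusted p = 0.0416) passed as well. *Plin5* also passed without av04 (0.81, edgeR adjusted p = 0.0470), and *Dgat2* passed as lower without av01 (-0.27, edgeR adjusted p = 0.0331). Without av05, *G0s2* was at 0.38, *Cidec* at 0.36 and *Plin2* at 0.11, and without av04 *G0s2* was at 1.49 (edgeR adjusted p = 0.0659). *Cideb* ranged from 0.036 without av01 to 0.26 without av04.

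**Figure D4:**
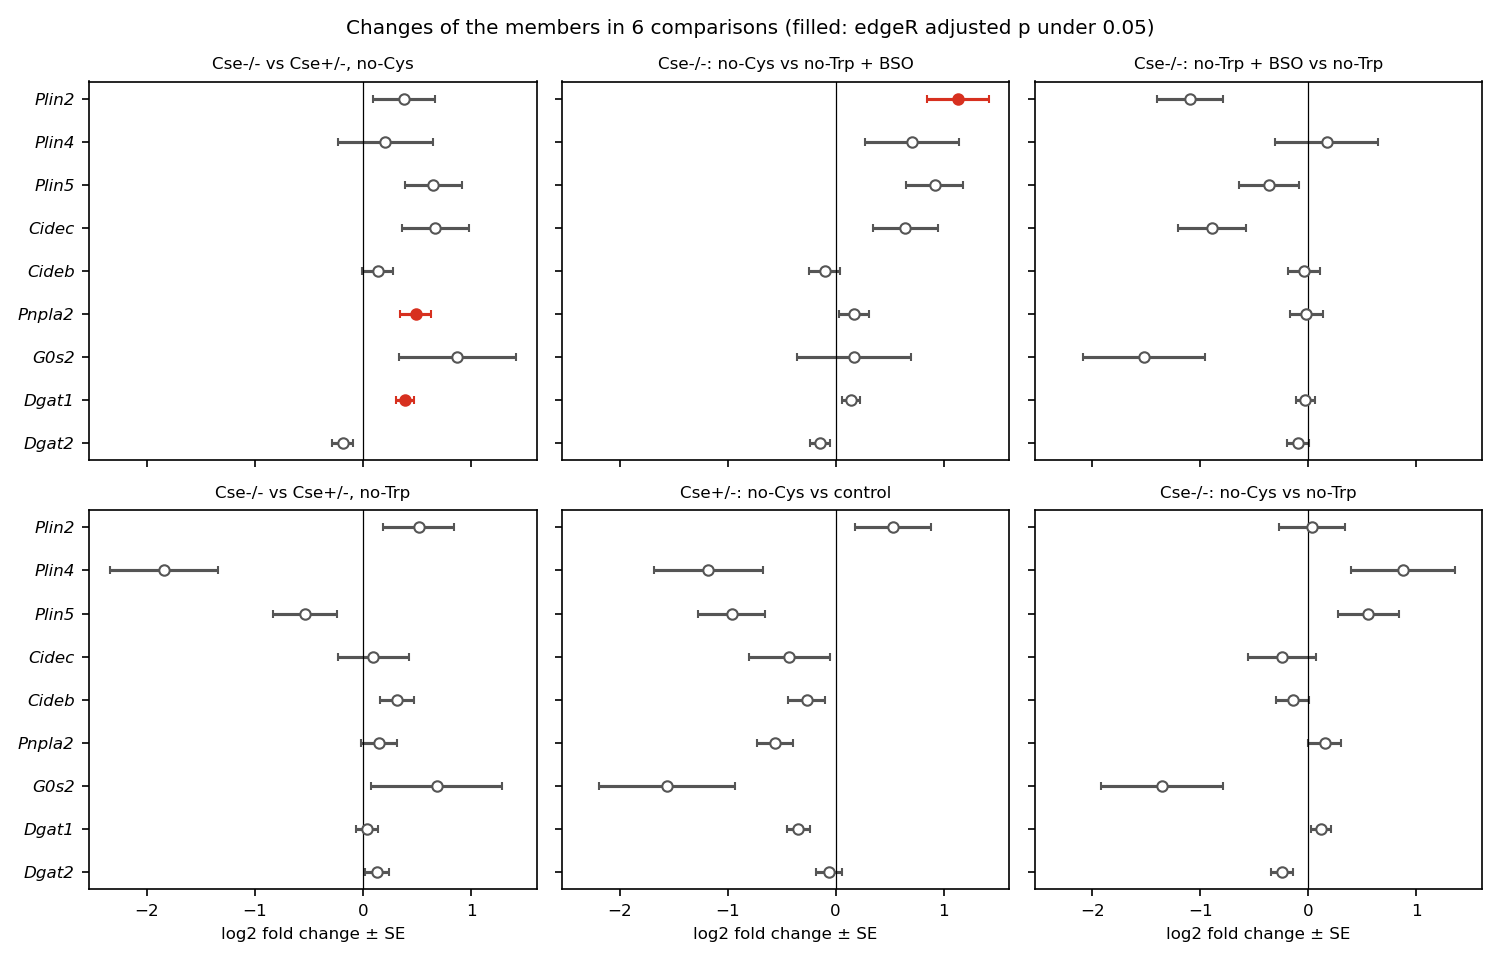
Log2 fold changes of the 9 tested members with SE in 6 comparisons, from edgeR, with filled red points at adjusted p under 0.05. *Dgat1* (0.39) and *Pnpla2* (0.49) pass between genotypes on the no-Cys diet and *Plin2* (1.13) between the no-Cys and BSO groups, and no other point in these panels passes.

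Within Cse-/- livers, the no-Cys diet was set against the no-Trp diet with BSO, which lowers glutathione while cysteine remains in the diet. *Plin2* was 2.19-fold higher on the no-Cys diet (log2 fold change 1.13, SE 0.287, edgeR adjusted p = 0.0385). It was the sole call by edgeR among 9 members, against 2.75% of all genes in either direction and 1.33% as higher. DESeq2 called *Plin5* too (adjusted p = 0.0113). *Plin5* was at 0.92 (SE 0.261, edgeR adjusted p = 0.0610) and *Cidec* at 0.65 (SE 0.299, edgeR adjusted p = 0.233), and the other 6 lay between -0.15 (*Dgat2*) and 0.71 (*Plin4*). Without av05, *Cidec* was at 0.33 (edgeR adjusted p = 0.643). The median over members was 0.17. The *Plin2* call depended on the livers included: without av05 it was 0.86 (edgeR adjusted p = 0.161), and it was also lost without av06 (1.17, edgeR adjusted p = 0.0968), av07 (1.18, 0.0801), av09 (1.08, 0.115), av11 (1.05, 0.121) or av12 (1.09, 0.0927). *Plin5* passed when av08 was left out (1.17, edgeR adjusted p = 0.00128) and when av14 and av17 were both left out of the shared fit (0.91, edgeR adjusted p = 0.0409).

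Addition of BSO to the no-Trp diet left 0 of 9 members past the threshold by edgeR, and 0 by DESeq2. edgeR called 0.793% of all genes. At an unadjusted p under 0.05 there were 3 members, against 13% of all genes. *Plin2* was 2.14-fold lower with BSO (log2 fold change -1.10, SE 0.304, edgeR adjusted p = 0.0956), *Cidec* 1.86-fold lower (-0.89, SE 0.314, edgeR adjusted p = 0.195) and *G0s2* 2.87-fold lower (-1.52, SE 0.566, edgeR adjusted p = 0.224). For *Plin2* and *Cidec* the groups did not overlap, as for 12.6% of all genes. The median over members was -0.10. Without av10, the BSO liver with high *G0s2*, *G0s2* passed as lower (-2.38, edgeR adjusted p = 0.0316). Without av15, a no-Trp liver, *Plin2* was at -0.72 (edgeR adjusted p = 0.426) and *Cidec* at -0.49 (edgeR adjusted p = 0.642).

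Between the no-Cys and no-Trp diets in Cse-/- livers, edgeR again called 0 of 9 members, DESeq2 called 0, while 10.4% of all genes passed by edgeR. At an unadjusted p under 0.05 there were 2 members, against 26.5% of all genes. *G0s2* was 2.55-fold lower on the no-Cys diet (-1.35, SE 0.565, edgeR adjusted p = 0.133) and *Dgat2* 1.18-fold lower (-0.24, SE 0.103, edgeR adjusted p = 0.140). The other 7 lay between -0.25 (*Cidec*) and 0.87 (*Plin4*), and *Plin2* differed by 0.04 (SE 0.306). *Plin5* (0.55, SE 0.282, edgeR adjusted p = 0.219) was called without av08 (0.81, edgeR adjusted p = 0.0173). The 3 comparisons within Cse-/- livers share groups and are not independent.

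Between genotypes on the no-Trp diet, DESeq2 called 1 member, *Plin4*. edgeR called 0 of 9, against 2.64% of all genes. *Plin4* was also the one member at an unadjusted p under 0.05 by edgeR, against 18.4% of all genes. *Plin4* was 3.59-fold lower in Cse-/- livers (-1.84, SE 0.501, edgeR adjusted p = 0.0541). It passed without av17, the heterozygous liver with adipocyte transcripts and low *Plin4* (-2.31, edgeR adjusted p = 0.00383), and without av14 and av17 (-2.27, edgeR adjusted p = 0.0167). The other 8 members lay between -0.54 (*Plin5*) and 0.68 (*G0s2*), and the median of all 9 was 0.13.

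The genotype effect on the no-Cys diet minus that on the no-Trp diet tests whether the diets differ in it. DESeq2 called 1 member, *Plin5*. edgeR called 0 of 9, against 4.36% of all genes. At an unadjusted p under 0.05 there were 4 members, against 19.4% of all genes. *Plin4* was at 2.05 (SE 0.663, edgeR adjusted p = 0.0835), *Plin5* at 1.19 (SE 0.396, edgeR adjusted p = 0.0936), *Dgat1* at 0.35 (SE 0.131, edgeR adjusted p = 0.136) and *Dgat2* at -0.32 (SE 0.147, edgeR adjusted p = 0.234). *Plin4* passed without av17 (2.51, edgeR adjusted p = 0.0117), without both av14 and av17 (2.48, edgeR adjusted p = 0.0305) and without av08 (2.26, edgeR adjusted p = 0.0391), and *Plin5* passed without av08 (1.44, edgeR adjusted p = 0.00427). The median over members was 0.34, against -0.02 for all genes.

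Among Cse+/- livers, which can make cysteine, the no-Cys diet was compared with the control diet. DESeq2 called 2 members, *Plin5* and *Pnpla2*. edgeR called 0 of 9, against 2.18% of all genes. At an unadjusted p under 0.05 there were 5 members, against 16.6% of all genes. All 5 were lower on the no-Cys diet: *Plin4* (-1.18, SE 0.506, edgeR adjusted p = 0.244), *Plin5* (-0.96, SE 0.309, edgeR adjusted p = 0.108), *Pnpla2* (-0.56, SE 0.170, edgeR adjusted p = 0.0877), *G0s2* (-1.56, SE 0.628, edgeR adjusted p = 0.207) and *Dgat1* (-0.35, SE 0.105, edgeR adjusted p = 0.0892). For 4 of them, all but *G0s2*, the groups did not overlap, against 25.6% of all genes. The members' median was -0.43, against 0.01 for all genes. *Dgat1* passed without av21 (-0.52, edgeR adjusted p = 0.0344), which leaves a single control liver whose spread is assumed to be that of the other groups. Without the other control liver, av22, *Dgat1* was at -0.15 (edgeR adjusted p = 0.831), *Pnpla2* at -0.38 and *G0s2* at -0.82 (edgeR adjusted p = 0.870), so the size of these differences depended on which control liver was kept. These 4 Cse+/- livers on the no-Cys diet also served as the reference of the genotype comparison on that diet.

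The no-Trp diet in Cse+/- livers moved 0 of 9 members past the threshold by edgeR and 0 by DESeq2, against 0.0474% of all genes called by edgeR, and 0 were at an unadjusted p under 0.05, against 9.29% of all genes. Fold changes lay between -0.37 (*Pnpla2*, SE 0.181) and 0.39 (*Cidec*, SE 0.384), with a median of -0.11. *Plin4* moved most when av14 and av17 were left out, from -0.0039 to 0.46 (edgeR adjusted p = 0.728).

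Other genes of droplets and triglycerides were taken from a list of 46, in 4 roles, all of which were tested. Between genotypes on the no-Cys diet, 8 were higher and 13 lower. Their median log2 fold change was -0.08, against -0.0093 for all genes. Called as lower were 12.2% of all genes, beside the 11.6% as higher. Of 13 further coat and droplet-assembly genes, 3 were higher in Cse-/- livers and 2 lower. *Hilpda*, a hypoxia-inducible inhibitor of ATGL, was higher by 1.00 (SE 0.301, edgeR adjusted p = 0.0209), at 2.94 against 1.47 CPM, with control livers at 2.74 CPM. *Plin3*, a coat protein of small droplets, was higher by 0.42 (SE 0.122) and *Hsd17b13*, a droplet enzyme of hepatocytes, by 0.37 (SE 0.123), while *Ldah* was at -0.60 (SE 0.0983) and *Hsd17b11* at -0.55 (SE 0.138). *Plin3* was at 68.4 CPM in Cse-/- and 51.2 CPM in Cse+/- livers, against 38.9 CPM in control livers. *Hsd17b13* was at 589 and 455 CPM, against 581 CPM in control livers. Apart from *Hilpda*, these were named after their values were seen. The calls of *Hilpda* (without av01, av02 or av05), *Hsd17b13* (without av02, av03, av06 or av07) and *Plin3* (without av07) were lost with a library left out.

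Of 9 further lipases and cofactors, 6 were lower in Cse-/- livers, against 12.2% of all genes, and none was higher, with a median of -0.79. They were *Ces1d*, a triglyceride hydrolase of the endoplasmic reticulum (-1.37, SE 0.292, edgeR adjusted p = 0.00212), *Lipc*, hepatic lipase (-1.03, SE 0.166), *Lpl*, lipoprotein lipase (-0.83, SE 0.281), *Aadac* (-0.79, SE 0.108), *Lipa*, the lysosomal acid lipase (-0.34, SE 0.112), and *Pnpla3*, a relative of *Pnpla2* at 0.357 against 1.51 CPM (-2.08, SE 0.461). *Lpl* and *Lipa* were at 13.6 and 151 CPM, near the control livers at 13.7 and 160 CPM, whereas *Ces1d*, *Lipc* and *Aadac* were at 227, 73.0 and 266 CPM, against 912, 155 and 455 CPM in control livers. *Pnpla3* was at 0.636 CPM in control livers, and their range (0.297 to 0.975 CPM) overlapped that of the Cse-/- livers (0.236 to 0.443 CPM). All Cse+/- livers on the no-Cys diet lay above the control livers for *Pnpla3*. *Pnpla2* itself was higher in the Cse-/- livers, and its coactivator *Abhd5* was at -0.02 (SE 0.106, edgeR adjusted p = 0.919). All but *Ces1d* were named after their values were seen. The call of *Lpl* was lost without any 1 library except av08, and that of *Lipa* without any 1 except av05, while the other 4 held.

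Of 17 genes of triglyceride synthesis, 4 were higher and 3 lower. *Gpat3*, which acylates glycerol phosphate, was higher by 2.66 (SE 0.372, edgeR adjusted p = 5.97e-05), at 23.6 against 3.82 CPM and 12.1 CPM in control livers, although 27.0% of its 61-base words also occur in other annotated genes. *Agpat5* (0.89, SE 0.130), *Agpat3* (0.39, SE 0.103) and *Mogat2* (1.67, SE 0.598) were the others called higher. Of the 61-base words of *Agpat5*, 18.4% also occur in another annotated gene. *Mogat2* rested on a single liver: Cse-/- livers ranged from 0.354 to 3.39 CPM, overlapping the 0.311 to 0.451 CPM of Cse+/- livers, and without av08 it was at 0.63 (edgeR adjusted p = 0.368). Its call was also lost without av01, av02, av03 or av04. In the other direction, the acyl-CoA synthetases *Acsl3* (-1.32, SE 0.175), *Acsl1* (-0.76, SE 0.194) and *Acsl5* (-0.51, SE 0.115) were lower. Apart from *Gpat3*, these too were named after their values were seen. Of 7 genes of uptake and transfer, the fatty acid receptor *Cd36* was higher by 2.89 (SE 0.181, edgeR adjusted p = 1.51e-08), at 203 against 27.4 CPM and 27.0 CPM in control livers. *Fabp1*, the fatty acid binder of hepatocytes, fell by 1.68 (SE 0.329, edgeR adjusted p = 0.00112), and the bile acid and fatty acid ligase *Slc27a5*, named after its value was seen, was at -0.80 (SE 0.156).

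**Figure D5:**
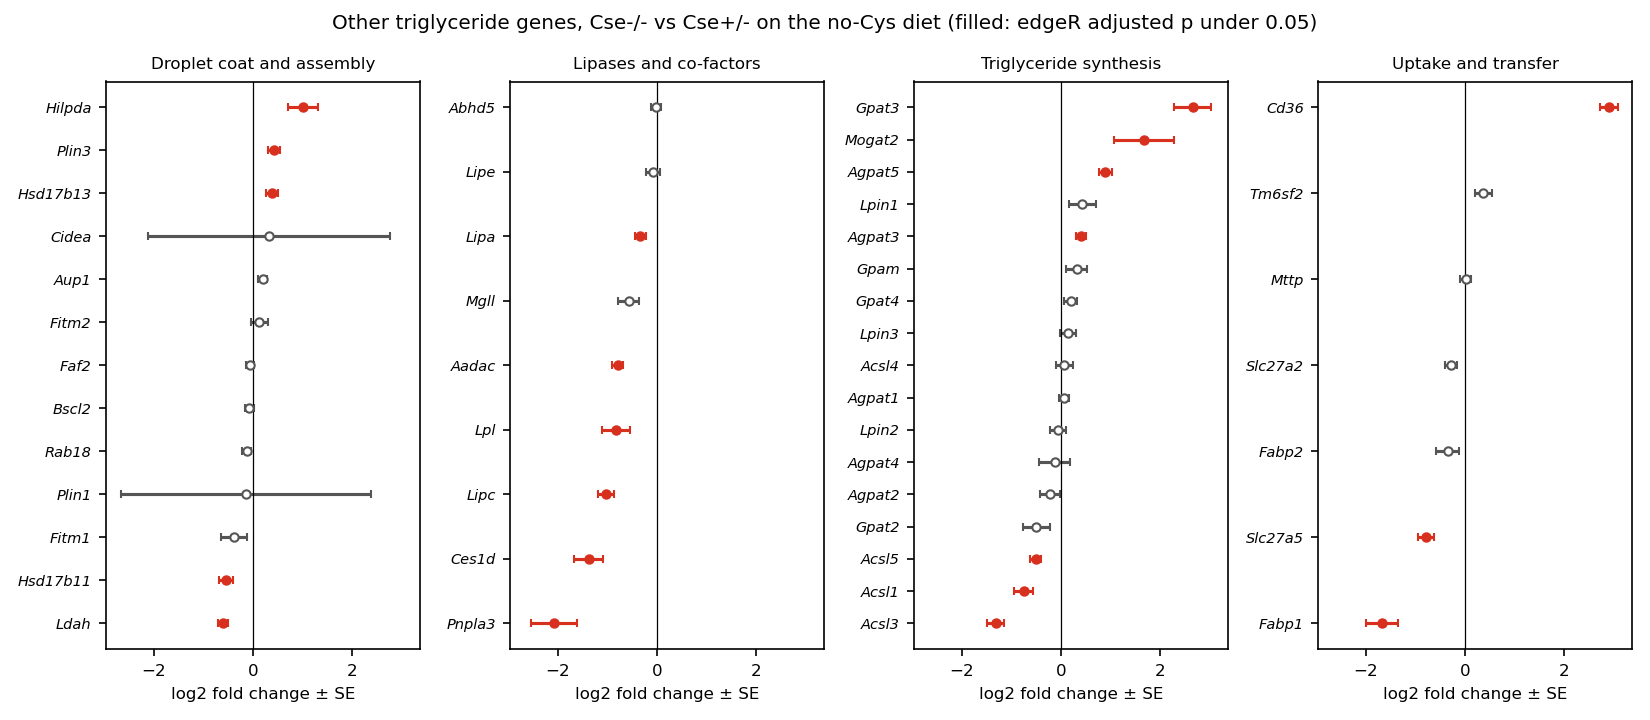
Log2 fold changes with SE between Cse-/- and Cse+/- livers on the no-Cys diet for 46 other genes in 4 roles, with filled red points at edgeR adjusted p under 0.05. The 6 filled lipase points are all below 0, and *Cd36* (2.89) and *Gpat3* (2.66) are the highest points.

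In the other comparisons fewer of these 46 genes passed, 2 of them between genotypes on the no-Trp diet, against 2.64% of all genes. *Cd36* was also higher in Cse-/- livers on the no-Trp diet (2.61, SE 0.204, edgeR adjusted p = 8.73e-07), as was *Gpam*, the mitochondrial acyltransferase of glycerol phosphate (1.02, SE 0.235, edgeR adjusted p = 0.0274; lost without av15, av16, av17 or av20), and 0 genes were lower there. Between the no-Cys and no-Trp diets in Cse-/- livers 4 were higher and 12 lower, against 10.4% of all genes in either direction, and 11 of these 16 calls held without each library in turn. The phosphatidate phosphatases *Lpin1* (1.36, SE 0.303, edgeR adjusted p = 0.00859) and *Lpin3* (0.64, SE 0.169, edgeR adjusted p = 0.0219, lost without av05, av06, av14 or av16) and the coat gene *Plin3* (0.67, SE 0.133, edgeR adjusted p = 0.00414) were higher on the no-Cys diet, while *Ces1d* (-1.59, SE 0.309, edgeR adjusted p = 0.00376) and *Acsl3* (-1.31, SE 0.182, edgeR adjusted p = 0.000259) were lower. *Lpin1* was at 666 CPM on the no-Cys and 260 CPM on the no-Trp diet, against 935 CPM in control livers. Adding BSO to the no-Trp diet lowered 2, against 0.793% of all genes called, *Acsl3* (-0.87, SE 0.177, edgeR adjusted p = 0.0227) and *Lipa* (-0.54, SE 0.119, edgeR adjusted p = 0.0363), and both were lost without av09 or av11, *Acsl3* also without av16 and *Lipa* without av12 or av15.

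Set against the BSO group, the no-Cys diet left 2 of the 46 higher, *Gpat3* (1.31, SE 0.329, edgeR adjusted p = 0.0372) and *Agpat5* (0.50, SE 0.125, edgeR adjusted p = 0.0364), and 4 lower, among them *Lipc* (-0.99, SE 0.166, edgeR adjusted p = 0.00545), *Ces1d* (-1.19, SE 0.291, edgeR adjusted p = 0.0345) and *Slc27a5* (-0.63, SE 0.156, edgeR adjusted p = 0.0353). These 6 stand against 2.75% of all genes, and *Lipc* alone held without each library in turn, the others being lost without any of av05, av06, av07, av09, av11 and av12. In Cse+/- livers the no-Cys diet lowered *Gpat4* (-1.20, SE 0.156, edgeR adjusted p = 0.000560) and *Gpat3* (-1.68, SE 0.434, edgeR adjusted p = 0.0469), against 2.18% of all genes called. The 2 control livers were at 6.48 and 17.8 CPM *Gpat3*, and its difference was -2.25 without av21 (edgeR adjusted p = 0.0165) and -0.79 without av22 (edgeR adjusted p = 0.746), with the call also lost without av02, av03 or av04. *Gpat4* was at -0.97 without av22 (edgeR adjusted p = 0.0625). The no-Trp diet moved none of the 46 past the threshold in Cse+/- livers. The difference between the genotype effects on the diets passed for 6 of the 46, against 4.36% of all genes. They were 2 higher genes, *Hilpda* (1.53, SE 0.430, edgeR adjusted p = 0.0484, lost with any of 10 of the 14 libraries left out) and *Agpat5* (0.85, SE 0.195, edgeR adjusted p = 0.0177), and 4 lower ones, among them *Acsl3* (-1.49, SE 0.256, edgeR adjusted p = 0.00310) and *Acsl5* (-0.99, SE 0.175, edgeR adjusted p = 0.00370).

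Also followed were 10 transcriptional regulators of lipid metabolism. Between genotypes on the no-Cys diet 1 was called higher and 2 lower, near the 11.6% and 12.2% of all genes. *Srebf1*, the activator of fatty acid synthesis genes, was at 67.0 CPM in Cse-/- and 216 CPM in Cse+/- livers (-1.69, SE 0.273, edgeR adjusted p = 0.000225). It was also lower on the no-Cys than on the no-Trp diet in Cse-/- livers (-1.38, SE 0.286, edgeR adjusted p = 0.00541), and its genotype effect differed between these diets (-1.98, SE 0.409, edgeR adjusted p = 0.00966). *Pparg*, which drives droplet genes in fatty liver, was at 7.16 against 4.29 CPM (0.73, SE 0.196, edgeR adjusted p = 0.0103), and *Cebpb* was at -0.68 (SE 0.214, edgeR adjusted p = 0.0271, lost without av03, av04, av07 or av08), both named after their values were seen. *Ppara* was at 82.9 and 79.9 CPM (0.05, SE 0.181, edgeR adjusted p = 0.863).

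The genes whose log2 CPM followed each member most closely over the 20 libraries were found among 12543 genes, as a description that shares group and depth. *Plin2* was most like *Cnr2* (Pearson's r = 0.895), *Mlycd* (0.885), the malonyl-CoA decarboxylase, and *Mttp* (0.866), which lipidates apolipoprotein B. *Pnpla2* was most like *St3gal5* (0.903), *Ctcflos* (0.877) and *Slc25a34* (0.876), and *G0s2* most like *Elmod3* (0.841), *Fitm2* (0.841), a droplet-assembly gene of the list, and *Ddx28* (0.808). For *Plin4* they were *Dclre1b* (0.845), *Plin5* (0.832) and *Rcc1* (0.820), and those for *Plin5* included *Pole4* (0.834) and *C9orf72* (0.832). *Cidec* was most like *Rab30* (0.816), *Tgoln1* (0.814) and *Slc22a5* (0.807), and *Cideb* most like *Bphl* (0.819), *Acad11* (0.797) and *Naxe* (0.785). *Dgat1* was most like *Prps1* (0.856), *Thap7* (0.830) and *Polr1a* (0.813), and *Dgat2* most like *Anpep* (0.870), *Decr2* (0.815) and *Ugt3a1* (0.810).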

How the data were processed

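Poly(A) RNA of 20 mouse livers was sequenced by the authors, who aligned reads to GRCm38 with HISAT2 2.1.0 and counted them on genes with HTSeq 0.11.0. The deposited values are raw counts per Ensembl gene, without normalization, and the annotation release and strand setting are not given in the sources used here. Of 21 columns, 20 were used and 1 was not, as its group is not given. Columns were tied to groups through the study's list of mice, and carry no replicate numbers. Symbols, coordinates and exon lengths come from GENCODE vM21, which named 45229 of 46078 genes, and promoters from RefSeq (GRCm38.p6).

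The low-count filter of edgeR (filterByExpr, at least 10 counts and 15 in total) left 14759 genes. edgeR 4.0.16 in R 4.3.3 fitted 6 group means by quasi-likelihood with TMM scaling, and two-sided p-values were adjusted over all genes by Benjamini-Hochberg, with a threshold of 0.05. CPM use the TMM-scaled library sizes, and log2 CPM a prior count of 2. The titles number the samples as biological replicates, so p-values measure the spread between mice. Pairs of libraries within a group had a chi-square per gene of 9.60 to 64.2, far over counting noise. Depth was 11785740 to 57986121 counts per library.

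Members and lists were chosen with earlier results of these data known. Named genes are all members, in each comparison the called pathway or regulator genes with mean CPM of at least 1 and the 3 largest changes in each direction, and the 3 genes most like each member. List genes named outside this rule were chosen after their values were seen. Alternatives were DESeq2 1.42.0, other scaling, filters, thresholds and samples in the fit, thinning to the shallowest library, and leaving out libraries. The fit was tested on simulated data. Python 3.11.15 with pandas 2.3.3, numpy 2.4.6 and matplotlib 3.10.9 made the tables and figures.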

Additional observations from a re-analysis of the deposited data

Results flagged for a closer look

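In groups of 4 livers, 30 combinations of member and group were checked for a liver far from the rest, and 2 were found, where chance gives about 1 in 20. *Plin2* was at 278 CPM in av10, a Cse-/- liver on the no-Trp diet with BSO, and at 161 to 176 CPM in the other 3. *G0s2* (153 CPM), *Cidec* (7.44 CPM) and *Cideb* (44.9 CPM) were also at their group's highest in av10, while *Plin4* (6.83 CPM), *Plin5* (40.1 CPM) and *Dgat1* (34.9 CPM) were at their group's lowest. *Dgat2* was at 705 CPM in av01, a Cse+/- liver on the no-Cys diet, and at 905 to 912 CPM in the other 3. *Plin2* (190 CPM), *Cidec* (3.97 CPM), *Cideb* (26.4 CPM) and *G0s2* (15.1 CPM) were at their group's lowest in av01, while *Pnpla2* (158 CPM) and *Dgat1* (34.2 CPM) were at their group's highest.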

How the results depend on the processing

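Followed here were 27 single-member results: all 9 of the genotype comparison on the no-Cys diet and, elsewhere, those at an unadjusted p under 0.05. Under 11 other settings they gave 282 values. Of these, 258 kept direction and side of the threshold, 22 came to pass, 2 no longer passed and 0 reversed. Leaving out a library gave 223 values, of which 202 kept both, 11 came to pass, 8 no longer passed and 2 reversed. This choice favours values far from 0, so the share that reversed is not that of all members. Outside it, *Plin2* between the no-Cys and no-Trp diets in Cse-/- livers went from 0.04 to -0.11 without av14 and av17. The causes were not tested. Between genotypes on the no-Cys diet, 2 members were called, 1 at an adjusted p under 0.01, 3 by DESeq2, 3 with no filter, and 1 to 4 with a library left out. The 2 values that reversed with a library left out were of *Plin4*, not called there. It ranged from -0.089 without av07 to 0.55 without av04, with -0.041 without av02. For no-Cys against BSO, 1 was called, with 0 at an adjusted p under 0.01, 2 by DESeq2, 2 with no filter, 2 without av17 and 2 without both av14 and av17, and 0 to 2 with a library left out. For no-Cys against no-Trp in Cse-/- livers, 0 became 1 with no filter, and 0 to 1 with a library left out. For BSO against no-Trp, 0 became 2 with no filter, and 0 to 1. For genotypes on the no-Trp diet, 0 became 1 by DESeq2, 1 with no filter and 1 without both av14 and av17, and 0 to 1. For the no-Cys diet in Cse+/- livers, 0 became 2 by DESeq2, 3 with no filter and 1 with only the groups compared in the fit, and 0 to 1. For the difference between diets, 0 became 1 by DESeq2, 2 with no filter and 1 without both av14 and av17, and 0 to 2. With no filter, edgeR tests many genes near 0 counts. The share of all genes called under these other settings is not given here, so the counts cannot be read as particular to the members. No paired analysis was possible because the columns carry no replicate numbers. The counts of *Cideb* may hold reads of *Nop9*, and *Mogat1* was too low to test.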
